A study of Mus musculus with 6 samples.

Results

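miR-103 and miR-107 are near-identical microRNAs (miRNAs), short RNAs that guide Argonaute proteins to messenger RNAs, and both lie inside genes for pantothenate kinases. They were taken from the deposited miRNA table by name, with every arm present, which gave 5 of its 1081 entries: miR-103-3p (mmu-miR-103-3p in the table) and miR-107-3p (mmu-miR-107-3p), the guide strands that act on targets, and the passenger strands miR-103-1-5p, miR-103-2-5p and miR-107-5p. Small RNA had been sequenced from the inner medulla of mouse kidney at 1 month of age, in 3 control and 3 DicerAQP2Cre+ mice. DicerAQP2Cre+ mice lack Dicer1 in cells that express aquaporin-2, the water channel through which principal cells of the collecting duct take up water, and the labels describe the other group only as control, without its alleles. In the table the knockout columns carry a short code, read here as conditional knockout replicates 1 to 3, and every direction below rests on that reading.

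Pantothenate kinases catalyse the rate-limiting step of coenzyme A synthesis, and an intron excised from their transcripts can release the miRNA hairpin, which Drosha and then Dicer cut into a guide and a passenger strand. The 2 guides are known for repressing Dicer1 itself and caveolin-1, and for effects on insulin sensitivity. They are present in most tissues, and miR-103 often serves as a reference in quantitative PCR.

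The 3 hairpins are shown because they explain which entries the table can hold, with the mature 5p and 3p arms in capitals. Sequences are RefSeq's for GRCm38.p6, whereas the submitters' processing notes name mm9, and no position was converted between builds.
Mir103-1: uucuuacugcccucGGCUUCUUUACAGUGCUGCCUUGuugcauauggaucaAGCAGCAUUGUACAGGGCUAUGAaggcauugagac
Mir103-2: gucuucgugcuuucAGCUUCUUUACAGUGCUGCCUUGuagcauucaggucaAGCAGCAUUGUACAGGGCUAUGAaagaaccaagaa
Mir107: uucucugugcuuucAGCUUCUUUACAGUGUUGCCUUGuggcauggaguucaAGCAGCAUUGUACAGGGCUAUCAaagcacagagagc

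Mir103-1 lies at chr11:35782396-35782481 on the plus strand in Pank3, Mir103-2 at chr2:131288052-131288137 on the plus strand in Pank2, and Mir107 at chr19:34820687-34820773 on the minus strand in Pank1. All 3 hairpins run in the direction of their host. In the principal transcript of each host (GENCODE M21 for GRCm38) the hairpin lies in intron 5 of a transcript with 7 exons, at 688, 454 and 326 bases after the exon before it in Pank3, Pank2 and Pank1. The host transcripts are not measured by small RNA libraries.

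The guides differ by a single base out of 23. Counted from 1 at the 5′ end, with miR-103-3p as the reference, miR-107-3p carries G22C. Their first 21 bases are the same, so a read that ends at base 21 or earlier matches both, and how the counting assigned such reads is not given in the sources used here. miR-103-3p is also made by both Mir103-1 and Mir103-2, so its value cannot be divided between Pank3 and Pank2. The passenger strands do differ between these copies, by A1G from miR-103-2-5p to miR-103-1-5p, and miR-107-5p differs from miR-103-2-5p by C16U.

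The seed, bases 2 to 8 of a miRNA, pairs with targets and is in capitals in the mature strands that follow. Only miR-103-3p and miR-107-3p share the seed GCAGCAU among 1679 mouse mature names with a single RefSeq sequence. The stretch AGCAGC, which starts at base 1 in both, starts at base 2 in miR-15, miR-16 and their relatives, the wider miR-15/miR-107 group. It was searched on the mature strand within bases 1 to 8, and 13 of the 1679 names (0.774%) hold it there, of which 9 are in the table.
miR-103-3p: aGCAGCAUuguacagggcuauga
miR-107-3p: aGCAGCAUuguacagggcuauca
miR-15a-5p: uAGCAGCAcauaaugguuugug
miR-15b-5p: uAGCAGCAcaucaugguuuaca
miR-16-5p: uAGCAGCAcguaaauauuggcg
miR-195a-5p: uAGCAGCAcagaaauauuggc
miR-497a-5p: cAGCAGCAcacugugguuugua
miR-322-5p: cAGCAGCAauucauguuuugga
miR-503-5p: uAGCAGCGggaacaguacugcag

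Values below are normalized reads, that is, reads per mature miRNA divided by a size factor for each library. Recovered whole reads ranged from 2934851 to 7614853 per library. When 0 reads are seen, the upper 95% bound on the expected count is about 3 reads. That corresponds to between 2.22 and 5.88 normalized reads. The main test was limma on log2(value + 1) over the 461 entries with a mean of at least 5, with p-values adjusted by Benjamini-Hochberg over all of them. It called 23 entries lower (4.99%) and 16 higher (3.47%) in DicerAQP2Cre+ samples. Without control replicate 2 it called 0 (43 lower and 40 higher at an unadjusted p under 0.05), and without control replicate 3 also 0 (47 and 45), so every limma call given here for all 6 libraries is lost in those fits. The summed level of 5 kidney epithelial guides of the miR-200 family, all of which fell, was 16704 to 17708 in controls and 7133 to 10776 in DicerAQP2Cre+ samples. The RNA came from whole tissue, so fewer cells of a type and less RNA per cell cannot be told apart.

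Neither guide strand passed the test. The DicerAQP2Cre+ libraries lay at the same positions relative to the controls for both guides, while the order of the controls differed. miR-103-3p stood at 4764, 4455 and 4085 in control replicates 1 to 3, and at 3342, 3862 and 6349 in DicerAQP2Cre+ replicates 1 to 3. The first and second DicerAQP2Cre+ libraries thus lay below every control and the third above every control, so the groups overlapped. Control and DicerAQP2Cre+ means were 4435 ± 340 and 4518 ± 1607 (SD, n = 3 each), and the log2 fold change came to -0.03 ± 0.25 (SE, limma adjusted p = 0.953). With 3 libraries a group its 95% interval ran from -0.58 to 0.53, that is, from 0.669-fold to 1.44-fold of control. A change within this range was therefore not excluded. The limma fold change compares means of logs, so it can lie below 0 beside a higher mean of values. Its sign depended on the method, with 0.076 by edgeR and 0.062 by DESeq2 on recovered reads (adjusted p = 0.861 and 0.888). Those tools differ from limma in both scaling and model.

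miR-107-3p, the strand from Pank1, stood at 859, 928 and 861 in the controls and at 551, 594 and 1051 in DicerAQP2Cre+ replicates 1 to 3. Here too replicates 1 and 2 were below every control and replicate 3 above every control. The means were 883 ± 38.9 and 732 ± 277 (SD, n = 3 each), their difference on the log2 scale was -0.33 ± 0.26 (SE, limma adjusted p = 0.439) and a 95% interval from -0.92 to 0.25. The controls were close together, with a highest value 1.08 times the lowest for miR-107-3p and 1.17 times for miR-103-3p. DicerAQP2Cre+ replicate 3 was 1.84 times the mean of the other DicerAQP2Cre+ libraries for miR-107-3p and 1.76 times for miR-103-3p.

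**Figure D1:**
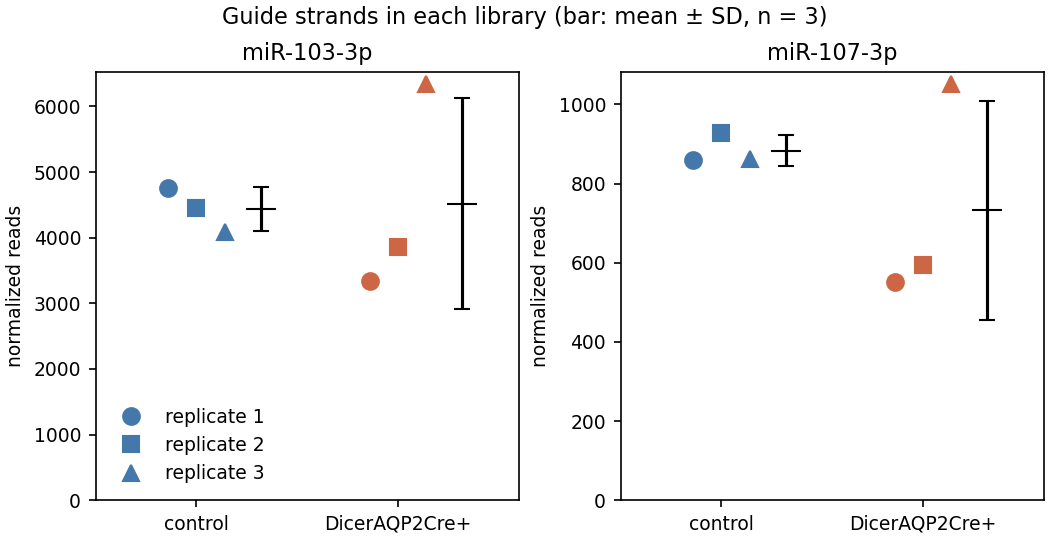
Normalized reads (y axis, from 0) of miR-103-3p and miR-107-3p in each control and DicerAQP2Cre+ library, with the mean ± SD of 3 libraries beside each group. In both panels DicerAQP2Cre+ replicate 3 (6349 and 1051) lies above all controls and replicates 1 and 2 lie below them.

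The result for miR-107-3p depended on that library. Without DicerAQP2Cre+ replicate 3 its difference on the log2 scale was -0.62 ± 0.19 (SE, limma adjusted p = 0.0269), and 13.6% of entries were called lower and 9.41% higher in that fit. edgeR and DESeq2, run on recovered reads without the same library after the pattern had been seen, gave -0.54 (adjusted p = 0.0458) and -0.61 (adjusted p = 0.0192), where edgeR called 11.1% of entries lower and 14.5% higher, and DESeq2 11.9% and 10.2%. With all 6 libraries the same tools gave -0.22 (adjusted p = 0.591) and -0.24 (adjusted p = 0.612), with 4.99% of entries lower and 4.12% higher by edgeR, and 6.72% and 6.29% by DESeq2. miR-103-3p was not called in any of these fits, with -0.30 ± 0.17 without DicerAQP2Cre+ replicate 3 (limma adjusted p = 0.216).

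A level in the first and second DicerAQP2Cre+ libraries below every control was common, seen in 29.3% of entries tested when replicate 3 was left out. Replicate 3 was the highest of all 6 libraries for 96 of 461 entries tested (20.8%), so this position of replicate 3 was not peculiar to the guides of miR-103 and miR-107. The share of entries with both positions together was not counted. On the log2 scale the SD over DicerAQP2Cre+ libraries was 0.49 for miR-103-3p and 0.51 for miR-107-3p, larger than in 59.0% and 62.5% of entries. Over controls the SD was 0.11 and 0.06, larger than in only 13.4% and 4.34% of entries.

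miR-103-3p ranked 57, 57 and 60 among all entries in the controls and 64, 55 and 46 in the DicerAQP2Cre+ libraries, and miR-107-3p ranked between 93 and 116. The summed guides, which carry 1 common seed, stood at 5623, 5383 and 4946 in controls and 3893, 4456 and 7401 in DicerAQP2Cre+ samples. The log2 of the sum differed by -0.07 between the group means (exact two-sided permutation p = 0.9, adjusted 0.9 over 3 such tests). As a share of all recovered reads the guides took 0.107 ± 0.00331% in controls and 0.0913 ± 0.0314% in DicerAQP2Cre+ samples (SD, n = 3 each, exact permutation p = 0.4, adjusted 0.6). The seed's total level therefore overlapped between groups on both measures.

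The balance between the guides did not overlap. miR-107-3p made up 15.3%, 17.2% and 17.4% of the guide reads in control replicates 1 to 3, and 14.2%, 13.3% and 14.2% in DicerAQP2Cre+ replicates 1 to 3. All 3 DicerAQP2Cre+ libraries, replicate 3 included, lay below all controls, although the exact (Clopper-Pearson) 95% binomial interval of control replicate 1, 14.5% to 16.1%, overlapped those of all 3 DicerAQP2Cre+ libraries, whose upper bounds lay between 14.8% and 15.1%. These intervals cover counting error only, since PCR copies are not independent molecules. Between 2274 and 7311 reads stood behind each share.

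Both strands have the same length, and miR-103-3p was 5.03 ± 0.447 times as abundant as miR-107-3p in controls and 6.20 ± 0.262 times in DicerAQP2Cre+ samples (SD, n = 3 each). The log2 ratio of miR-107-3p to miR-103-3p differed by -0.31, from -2.33 ± 0.13 to -2.63 ± 0.06, and the exact permutation test (two-sided) gave p = 0.1, the lowest value possible with 3 libraries a group (adjusted 0.3 over the 3 tests). This ratio does not change with the scaling of libraries. It does rest on how reads that end before base 22 were assigned, and the part of read length in the difference was not tested. Groups did not overlap for 33.6% of single entries tested. They did not overlap for the log2 ratio of 30.9% of all pairs of tested entries, nor for 27.2% of the 5953 pairs with a correlation of at least 0.8 over the 6 libraries (both counted after the ratio was seen), so a ratio that separates the groups was common.

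**Figure D2:**
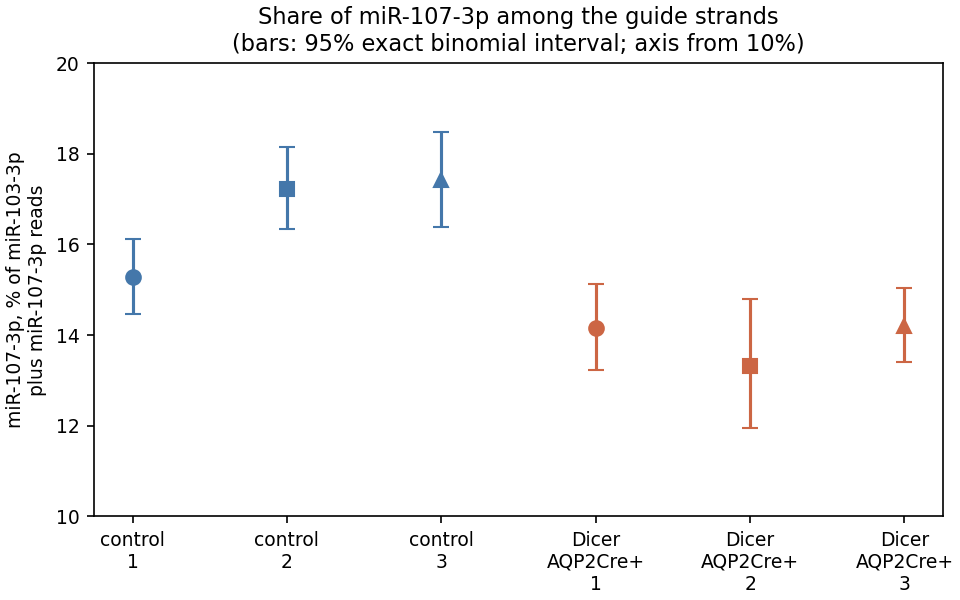
Percent of miR-107-3p among reads of both guides (y axis, from 10% to 20%) in each library, with 95% exact binomial intervals for counting error. The DicerAQP2Cre+ libraries lie between 13.3% and 14.2% and the controls between 15.3% and 17.4%.

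The passenger strands were close to absent. Over all libraries miR-103-2-5p had 17 reads, miR-107-5p 11 and miR-103-1-5p 5, against 28787 for miR-103-3p and 5264 for miR-107-3p. Per library, in control replicates 1 to 3 and then DicerAQP2Cre+ replicates 1 to 3, miR-103-2-5p had 4, 0, 3, 6, 3 and 1 reads, and miR-107-5p had 1, 5, 4, 1, 0 and 0. miR-103-1-5p had 2, 0 and 1 reads in controls and 2, 0 and 0 in DicerAQP2Cre+ libraries. All 3 lay below the mean filter and were not tested. The groups overlapped for miR-103-1-5p and miR-103-2-5p. For miR-107-5p, with 10 reads over the controls and 1 over the DicerAQP2Cre+ libraries, they did not overlap in normalized reads. The same held for 33.6% of entries tested. Control replicate 1 and DicerAQP2Cre+ replicate 1 had 1 read each (0.769 and 0.740 normalized), so in whole reads the groups met.

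Passenger reads made up 0.0764% of the reads from miR-103 (95% exact interval 0.0479% to 0.116%) and 0.209% of those from miR-107 (0.104% to 0.373%), pooled over the 6 libraries. For miR-107 the share was 0.313% over the controls (0.150% to 0.574%) and 0.0481% over the DicerAQP2Cre+ libraries (0.00122% to 0.268%), and these intervals, which cover counting error only, overlap. For miR-103 it was 0.0621% and 0.0944%. For comparison, over 122 hairpins with both arms named alike and at least 1000 reads in all, the median share of the rarer arm was 1.23%, and 35 had a smaller share than miR-107. The guides were therefore nearly the whole output of these hairpins in both groups. Both Pank3 and Pank2 copies gave passenger reads, 5 and 17, though miR-103-1-5p is distinguished from miR-103-2-5p only at its first base and a read that starts later fits both.

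The rest of the miR-15/miR-107 group shares the AGCAGC stretch and much of the target pairing, and its members are known as brakes on the cell cycle and on BCL2. Of 9 miRNAs listed, 7 were in the table and all 7 were tested. limma called 0 of the 7 lower and 0 higher, against 4.99% and 3.47% of all entries. The median log2 fold change of the 7 was 0.11, with 3 of 7 below 0. Over all 461 entries the median was -0.01, with 233 of 461 below 0. At an unadjusted p under 0.05 limma gave 69 lower and 60 higher entries in all. edgeR also called none of the 7, where it called 4.99% of all entries lower and 4.12% higher. DESeq2 called miR-15a-5p lower (-0.84, adjusted p = 0.0260), where it called 6.72% of all entries lower and 6.29% higher. With libraries set to equal totals, which moved the median of all entries to -0.21, the median of the 7 was -0.10 and limma called 3 of the 7 lower (miR-15a-5p, miR-16-5p and miR-322-5p), where it called 10.4% of all entries lower and 3.04% higher.

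miR-15a-5p stood at 407, 311 and 278 in controls and 179, 221 and 146 in DicerAQP2Cre+ samples. miR-16-5p, whose hairpin copies lie beside those of miR-15a and miR-15b, stood at 1994, 2479 and 3057 and then 1706, 1695 and 1189. For both, every DicerAQP2Cre+ library was below every control, and the log2 fold changes were -0.86 ± 0.25 and -0.71 ± 0.24 (SE, limma adjusted p = 0.0641 and 0.0918). miR-322-5p, the mouse counterpart of miR-424, did the same at 180, 142 and 199 against 120, 110 and 69.5 (-0.82 ± 0.28 on the log2 scale, limma adjusted p = 0.0973). Groups thus did not overlap for 3 of the 7, against 33.6% of all entries tested.

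miR-15b-5p went the other way, with 1267, 1174 and 826 in controls and 2447, 2050 and 1152 in DicerAQP2Cre+ samples. Its groups overlapped, because DicerAQP2Cre+ replicate 3 lay within the range of the controls (0.74 ± 0.30, limma adjusted p = 0.135). Without that library miR-15b-5p was higher (1.06, limma adjusted p = 0.00279) and miR-15a-5p lower (-0.72, limma adjusted p = 0.0403). In that fit 9.41% of all entries were called higher and 13.6% lower. miR-195a-5p and miR-497a-5p, which lie next to each other in the genome, had log2 fold changes of 0.15 and 0.11, and the scarce miR-503-5p, with means of 6.16 and 11.7, had 0.56 ± 0.71. None of these 3 passed.

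DicerAQP2Cre+ replicate 3 held opposite positions for the 2 guides and for the rest of the group. It was the highest of the DicerAQP2Cre+ libraries for both miR-103-3p and miR-107-3p, and the lowest for 7 of 7 members of the rest of the group. Over all entries tested it was the highest of its group in 38.2% and the lowest in 39.7%. These positions describe 1 library, and several of the 7 are made from shared transcripts, so they are not independent of each other.

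**Figure D3:**
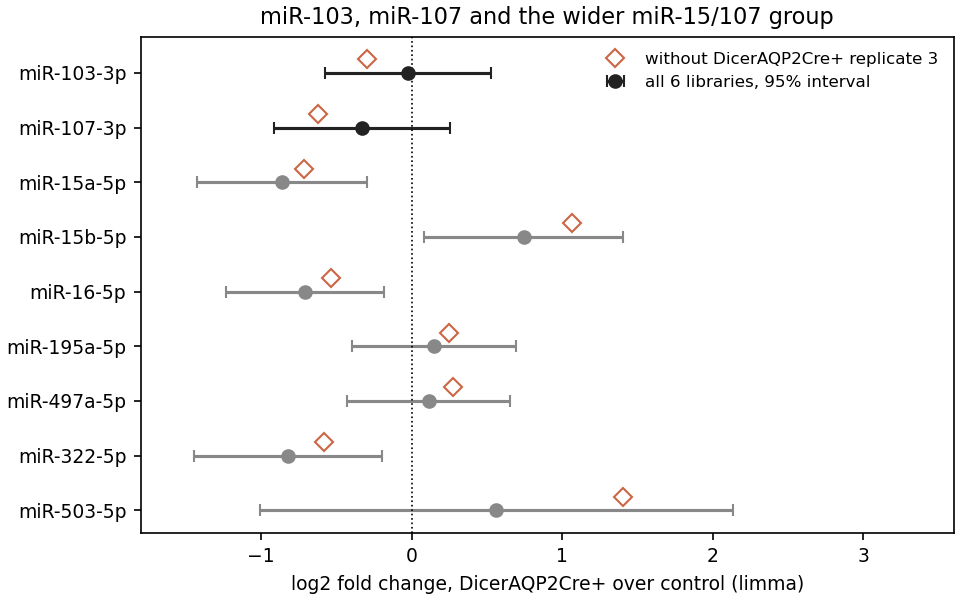
Log2 fold change of DicerAQP2Cre+ over control (x axis) for each guide strand with the AGCAGC stretch, with limma's 95% interval over 6 libraries (filled circles) and the value without DicerAQP2Cre+ replicate 3 (open diamonds). miR-107-3p moves from -0.33 to -0.62 and miR-15b-5p from 0.74 to 1.06.

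Over the 6 libraries, log2(value + 1) of the 2 guides had a Pearson correlation of 0.862 (exact permutation p = 0.0111) and a Spearman correlation of 0.829 (exact permutation p = 0.0583). Without DicerAQP2Cre+ replicates 1 and 3, the libraries farthest from the median of miR-103-3p, Pearson's r was 0.728 over 4 libraries. The guides share libraries, normalization and, for short reads, the sequences counted. Among 259 entries with a mean of at least 50, miR-107-3p ranked 12 in likeness to miR-103-3p, and miR-103-3p ranked 23 in likeness to miR-107-3p.

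The entries most like miR-103-3p were miR-3475-3p (r = 0.984), miR-26b-3p (0.955), let-7f-5p (0.951), miR-181a-2-3p (0.927) and miR-126a-3p (0.924), over 6 libraries. For example, let-7f-5p stood at 8420, 6528 and 8247 in controls and at 3947, 6202 and 15900 in DicerAQP2Cre+ samples. Those most like miR-107-3p were miR-1968-5p (r = 0.989), miR-193a-5p (0.982), miR-10a-5p (0.945), let-7j (0.928) and miR-126a-3p (0.925). miR-193a-5p stood at 155, 171 and 160 and then 79.2, 106 and 193. Without DicerAQP2Cre+ replicate 3 these correlations ranged from 0.831 to 0.985, and none of the 9 entries was called by limma with all libraries. They were picked for their likeness, so the correlations are descriptions only.

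miR-126a-3p, a marker of endothelial cells, was on both lists. It stood at 821, 743 and 836 in controls and 557, 641 and 1037 in DicerAQP2Cre+ samples. The other of the 2 endothelial markers, miR-126a-5p, did not follow it. miR-126a-5p stood at 408, 218 and 285 in controls and 273, 263 and 208 in DicerAQP2Cre+ samples, so DicerAQP2Cre+ replicate 3 was its lowest library. Summed, the 2 markers stood at 961 to 1229 in controls and 830 to 1245 in DicerAQP2Cre+ samples, and 0 of 2 passed. The part of endothelial RNA in the pattern of miR-103 and miR-107 was not tested.

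**Figure D4:**
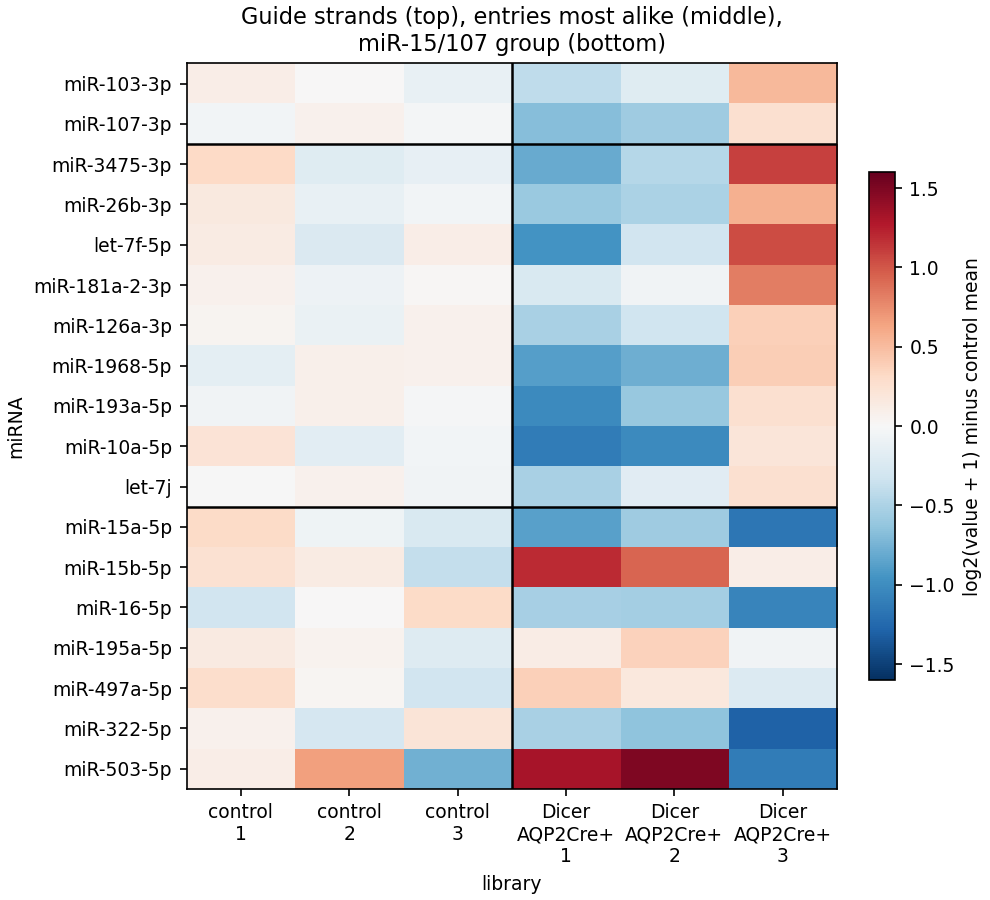
Difference of log2(value + 1) from the control mean (colour scale, red higher and blue lower) for each miRNA (y axis) in each library (x axis). The guides and the entries most like them are blue in DicerAQP2Cre+ replicates 1 and 2 and red in replicate 3, whereas the miR-15/miR-107 group at the bottom has its lowest DicerAQP2Cre+ value in replicate 3.

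Markers of other cells moved in other ways. The summed stromal markers (4 of 5 listed) stood at 21296 to 22713 in controls and 25414 to 36427 in DicerAQP2Cre+ samples. Of these 4, 2 were called higher (miR-145a-5p and miR-214-3p), against 3.47% of all entries. Listed as well, miR-199a-3p shares an entry with miR-199b-3p and was left out of the sum. That entry had means of 1872 in controls and 3126 in DicerAQP2Cre+ samples and was not called (0.71 ± 0.23, limma adjusted p = 0.0915). miR-143-3p, which makes up most of that sum, was not called (0.31, limma adjusted p = 0.315). The summed leukocyte markers stood at 12167 to 35214 and 15922 to 38104, with 0 of 3 tested called. That sum is nearly all miR-150-5p, whose value was highest in DicerAQP2Cre+ replicate 3 (38097) and in control replicate 1 (35203), while miR-142a-3p, a defining leukocyte miRNA, had 0 in 5 of the 6 libraries. The summed erythroid markers miR-451a and miR-144-3p were 17.3 to 31.0 and 13.7 to 25.9, with 0 of 1 tested called. Another listed erythroid marker, miR-486a-5p, shares an entry with miR-486b-5p and was left out of that sum. That far more abundant entry had means of 108634 in controls and 81120 in DicerAQP2Cre+ samples. It was not called (-0.40 ± 0.24, limma adjusted p = 0.316). The proximal tubule markers miR-192-5p and miR-194-5p summed to 1275 to 1340 and 627 to 1131, with 1 of 2 called lower (miR-194-5p), against 4.99% of all entries. Among DicerAQP2Cre+ libraries this sum was highest in replicate 3 through miR-192-5p (492, 772 and 1075 in replicates 1 to 3). miR-194-5p went the other way and was lowest in replicate 3 (135, 68.6 and 56.2). miR-107-3p was called in the fit without DicerAQP2Cre+ replicate 3. In that fit 3 of the 4 summed stromal markers and 1 leukocyte marker (miR-223-3p, 1.64, limma adjusted p = 0.0383) were called higher, against 9.41% of all entries. There 2 of 2 proximal tubule markers were called lower, against 13.6%. The part of these cells in the pattern of the guides was not tested.

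miR-103-3p was also set beside 11 other miRNAs that are often used as quantitative PCR references. Of these 11, all tested, 1 fell and 0 rose, against 4.99% and 3.47% of all entries. A log2 fold change below 0 was found for 10 of 11, against 233 of 461 entries, with a median of -0.37 against -0.01. The count of 10 was the same with equal totals, by edgeR and by DESeq2, where 294, 205 and 215 of 461 entries were below 0. With equal totals 2 of 11 were called lower (miR-26a-5p and miR-16-5p, which is also on the list of the miR-15/miR-107 group), against 10.4% of all entries. Without DicerAQP2Cre+ replicate 3 limma called 2 of 11 lower and 0 higher, against 13.6% and 9.41% of all entries. These 2 were miR-26a-5p (-0.67, limma adjusted p = 0.0128) and miR-423-5p (-0.83, limma adjusted p = 0.00614). The one that fell in the main test was miR-26a-5p, with means of 143584 ± 9055 in controls and 89879 ± 6264 in DicerAQP2Cre+ samples (-0.68 ± 0.17, limma adjusted p = 0.0272). miR-26a-5p was not called with no filter (limma adjusted p = 0.129), without a mean-variance trend (0.105), with a replicate block (0.0688), or without control replicate 1, 2 or 3 or DicerAQP2Cre+ replicate 2 (0.0669, 0.166, 0.109 and 0.112). The smallest differences of the 12 in limma were those of miR-103-3p (-0.03), miR-93-5p (-0.09 ± 0.19) and miR-25-3p (-0.10 ± 0.20). That place of miR-103-3p rested on DicerAQP2Cre+ replicate 3, since without it the differences were -0.30 for miR-103-3p, -0.0027 for miR-93-5p, 0.15 for let-7a-5p and -0.17 for miR-25-3p. The SD over DicerAQP2Cre+ libraries was far larger for miR-103-3p, 1607 on a mean of 4518, than for miR-93-5p, 592 on a mean of 4670. Relative to the mean it was larger still for miR-423-5p (4844 on 11006) and miR-361-5p (81.3 on 195). For the rest of the listed references it was smaller than for miR-103-3p.

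Entries of like abundance covered a wide range of fold changes. Next to miR-103-3p in mean value were miR-30c-2-3p (-0.48), miR-139-5p (0.34), miR-24-3p (0.16) and miR-30e-5p, which fell (-1.15, limma adjusted p = 0.0126). Next to miR-107-3p were miR-132-3p, which rose (1.22, limma adjusted p = 0.0164, and 0.0575 without a mean-variance trend), miR-210-5p (-0.27), miR-1198-5p (-0.20) and miR-126a-3p (-0.15). Besides the fits without control replicate 2 or 3, miR-132-3p was not called without control replicate 1 (limma adjusted p = 0.05002) or DicerAQP2Cre+ replicate 2 (0.0759). Among 5 miRNAs of metabolism, most of them encoded within other genes (the miR-33 and miR-378a arms and miR-122-5p), 2 were above the filter and 0 were called. These were miR-378a-3p, whose hairpin lies within Ppargc1b, at -0.30 ± 0.22, and miR-378a-5p at -0.58 ± 0.28.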

How the data were processed

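The deposited signal is normalized: each library's reads per mature miRNA were scaled by 1 size factor. FastQC 0.11.3, DESeq2 and mm9 are named in the submitters' processing notes, which name no aligner or counter. The unit was read from the deposited values: 100% were whole multiples of the smallest value above 0 in their library, within 0.01 read. Whole reads recovered in this way entered edgeR 4.0.16 and DESeq2 1.42.0. limma 3.58.1 (R 4.3.3) used a pseudocount of 1, a mean filter of 5 (461 of 1081 entries tested), a mean-variance trend, two-sided tests and an adjusted p threshold of 0.05, and was tested on simulated data. Exact permutation tests and binomial intervals came from scipy 1.17.1. The members and lists were chosen with earlier results of these data known. Named miRNAs were the members, the listed entries, the 5 entries most correlated with each guide, and the 2 next above and below each guide in mean value. Of the 1081 entries, 916 matched RefSeq mature names. No pair of libraries of a group agreed within sampling noise, so none was treated as deposited again. The design describes separate mice. Equal replicate numbers were not taken as pairs.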

Additional observations from a re-analysis of the deposited data

How the results depend on the processing

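miR-103-3p had a log2 fold change near 0 whose sign changed with the setting, and it was called in none of them. It was 0.076 by edgeR and 0.062 by DESeq2, and ranged from -0.30 to 0.16 when 1 library was left out, being above 0 without control replicate 1, DicerAQP2Cre+ replicate 1 or DicerAQP2Cre+ replicate 2. miR-107-3p stayed below 0 in all settings run. It was called only without DicerAQP2Cre+ replicate 3 (-0.62 by limma, -0.54 by edgeR and -0.61 by DESeq2, the count tests being chosen after seeing the data), and ranged from -0.62 to -0.16 with 1 library left out. The log2 of the summed guides ranged from -0.35 to 0.11 with 1 library left out. The log2 ratio of miR-107-3p to miR-103-3p ranged from -0.38 to -0.26, where the exact test on 3 and 2 libraries has a lower limit of 0.2. With equal totals the median of all entries moved from -0.01 to -0.21, and the guides stood at -0.24 and -0.54 (limma adjusted p = 0.567 and 0.181). edgeR moved that median to 0.10. With the replicate number as a block the guides kept -0.03 and -0.33 (limma adjusted p = 0.952 and 0.437), and 18 entries were lower and 14 higher. The deviations of same-numbered libraries had correlations of -0.06, 0.01 and 0.06, so no pairing by number was visible. So few correlations cannot show that the samples were unpaired.

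Against 23 lower and 16 higher entries, limma called 48 lower and 14 higher with equal totals (22.6% of calls higher, against 41.0%), and 11 and 7 without a trend. DESeq2 called 31 and 29. With 1 library left out the counts ranged from 0 (without control replicate 2, and again without control replicate 3) to 62 lower and from 0 to 43 higher. Without DicerAQP2Cre+ replicate 3 edgeR called 51 and 67, and DESeq2 55 and 47. In the miR-15/miR-107 group, against 0 called, 1 was lower with a mean filter of 50 and by DESeq2 (miR-15a-5p), and 3 with equal totals (miR-15a-5p, miR-16-5p and miR-322-5p). With 1 library left out between 0 and 1 were lower and between 0 and 1 higher. Without DicerAQP2Cre+ replicate 3 edgeR called 1 higher (miR-15b-5p), and DESeq2 1 higher and 1 lower. The passenger strands, untested in all but the fit with no filter, have too few reads for their fold changes to be read. For leave-one-out counts, fewer samples also weaken the test.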
